A study of Mus musculus with 63 samples.

Results

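A pair of edits of the same promoter was compared in mouse embryonic stem cells, its deletion and its inversion in place. Meteor is a long non-coding RNA locus whose features the study's title links to the level of Eomes, and both edits act on its promoter. All cells were of the R1 line, a mouse embryonic stem cell line, and were grown in medium with 15% serum and LIF at 10 ng/ml on a layer of mouse embryonic fibroblasts, called feeders. The deletion (Meteor promoter KO) was represented by 2 lines, pKO1 and pKO2, and the inversion (Meteor promoter inversion) by 1 line, pInv, each with 3 poly(A) RNA libraries, so 9 of the 63 libraries of the series were compared. The 6 unedited libraries of the WT1 and WT2 lines entered the same model to estimate the spread and served as a reference. The labels give no treatment other than the medium, no guide sequences and no statement on whether a line is a clone. Because pInv is 1 line, the inversion and the line that carries it cannot be told apart. The libraries held 8910017 to 14947003 counts each.

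Eomes encodes a T-box transcription factor that directs cells of the early embryo into mesendoderm, the common precursor of mesoderm and endoderm. In stem cells kept in serum a fraction of cells leaves the naive state and turns on such genes, so that bulk RNA holds low levels of primitive streak transcripts. Deleting a promoter removes both its DNA and the RNA made from it, whereas inverting it keeps the DNA in place and takes away transcription in the original direction. The comparison of the edits thus asks whether removing the promoter DNA and turning it around leave different transcriptomes. In bulk samples, fewer cells of a type and less RNA per cell cannot be told apart.

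Several interferon-inducible genes were lower in the deletion lines, and the promoters of 3 of them are shown because they share a motif. Irgm1 and the row of Tgtp2 were called in the comparison, and Gbp3 only in a fit with the replicate number as a block. The windows are the 250 bases upstream of an annotated start of each gene in RefSeq (GRCm38.p6). They are read 5′ to 3′ on the strand of the gene. Capitals mark matches on either strand to GAAA, any 2 bases and GAAA again, the core of the element bound by interferon regulatory factors.
Irgm1, chr11:48871421-48871670, minus strand: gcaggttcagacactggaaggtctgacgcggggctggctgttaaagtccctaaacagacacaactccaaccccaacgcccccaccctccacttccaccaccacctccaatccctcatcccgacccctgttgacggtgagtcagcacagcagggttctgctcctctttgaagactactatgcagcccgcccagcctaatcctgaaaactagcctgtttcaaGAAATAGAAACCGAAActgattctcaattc
Tgtp2, chr11:49064213-49064462, minus strand: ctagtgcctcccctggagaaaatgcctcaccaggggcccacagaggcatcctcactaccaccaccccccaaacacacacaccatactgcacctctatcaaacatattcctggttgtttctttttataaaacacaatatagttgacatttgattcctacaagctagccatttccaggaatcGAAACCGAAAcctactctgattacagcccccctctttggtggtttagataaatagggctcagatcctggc
Gbp3, chr3:142559794-142560043, plus strand: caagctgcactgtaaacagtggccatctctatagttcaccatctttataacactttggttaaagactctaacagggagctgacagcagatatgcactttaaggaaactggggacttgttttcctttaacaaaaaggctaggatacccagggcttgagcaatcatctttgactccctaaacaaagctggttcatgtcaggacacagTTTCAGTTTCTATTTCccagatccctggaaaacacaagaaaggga
The Irgm1 and Gbp3 windows shown each held 2 matches that overlap and the Tgtp2 window held 1. The window at another start of Gbp3, chr3:142560106-142560355, held none. Of 32851 such windows in the mouse annotation, 2.98% held at least 1 match. Among the 16 genes called below that had a window, 3 held a match, namely Irgm1 and the near-identical Tgtp1 and Tgtp2, which share 1 row and 1 call. The window of Eomes, which was not called, held 1 match, and the windows of Psmb10 and Psme2 held none. A match is a description of the letters and not evidence of a bound site.

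The edited locus was checked first. The Platr11 row, a long non-coding RNA gene that neighbours Eomes on chromosome 9 in RefSeq, held 99, 68 and 99 counts in WT2 and 106, 142 and 152 counts in WT1. It held 1, 1 and 2 counts in pKO1, 0, 0 and 1 in pKO2, and 1, 0 and 2 in pInv. All 9 edited libraries were thus at or under 2 counts and all unedited ones at or over 68. The summed level was 0.0721 CPM (counts scaled to the size of each library) in the deletion lines (exact 95% Poisson interval 0.0234 to 0.168) and 0.0873 CPM in the inversion line (0.018 to 0.255), against 9.27 CPM in WT (8.58 to 10.0 CPM). These intervals cover counting error only. At this depth no difference between the edits was detectable in that row, and no fold is given because 5 and 3 counts lie near the floor of 3 counts. No source used here states that this row is the Meteor transcript.

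Eomes was at 24.7, 16.8 and 16.9 CPM in pKO1, at 25.3, 18.6 and 29.1 CPM in pKO2, and at 25.3, 27.0 and 43.9 CPM in pInv. The groups overlapped, with pKO2 replicate 3 above the first 2 pInv libraries. The mean was 21.9 ± 5.17 CPM in the deletion lines (SD, n = 6), 32.1 ± 10.3 CPM in the inversion line (SD, n = 3) and 48.0 ± 15.4 CPM in WT (SD, n = 6). On the log2 scale the deletion lines differed from the inversion line by -0.56 ± 0.25 (SE, unadjusted 95% interval -1.10 to -0.02, adjusted p = 0.627). Eomes was therefore not called between the 2 edits. The same fit gave -1.13 ± 0.21 for deletion minus WT (adjusted p = 0.00818) and -0.57 ± 0.26 for inversion minus WT (adjusted p = 0.999), 2 comparisons that share the WT libraries. Of the other genes near Eomes only Cmc1 and Golga4 were listed. Neither was called, with Cmc1 at a log2 difference of 0.11 ± 0.15 (adjusted p = 0.938) and Golga4 at 0.19 ± 0.14 (adjusted p = 0.868). Cmc1, a mitochondrial protein gene, averaged 18.5 ± 2.46 CPM in the deletion lines and 17.03 ± 2.58 CPM in the inversion line. Golga4, which encodes a protein of the Golgi, averaged 37.6 ± 8.12 and 32.7 ± 2.72 CPM in the same order.

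**Figure D1:**
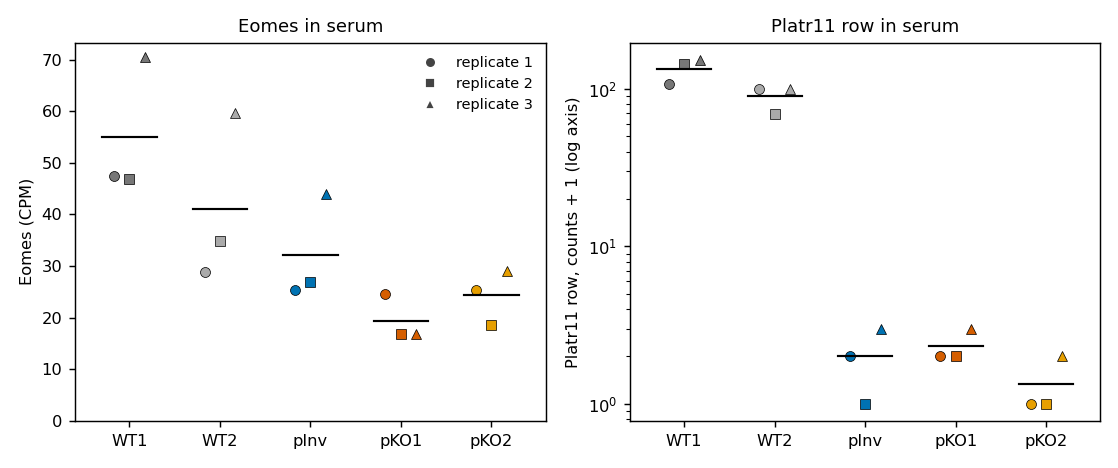
Eomes in CPM (left) and counts of the Platr11 row plus 1 on a log axis (right) in the 15 serum libraries, by line; symbols mark the replicate number and bars the mean of a line. The Platr11 row was at or under 2 counts in all 9 edited libraries, and Eomes in the deletion lines (16.8 to 29.1 CPM) overlapped the inversion line (25.3 to 43.9 CPM).

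Few genes were called between the edits, and their number depended on the fit. Of 14197 genes tested, 12 were higher in the deletion lines (0.0845% of genes) and 13 were lower (0.0916%) at an adjusted p of 0.05, and 8 and 10 of these, respectively, passed 2-fold. Libraries with the same replicate number deviated together, so a fit with the number as a block was made, and it called 55 genes higher (0.387%) and 111 lower (0.782%), among them all 25. The same block called 691 genes between the deletion lines pKO1 and pKO2 (4.87%) and 351 between WT1 and WT2 (2.47%), against 28 (0.197%) and 75 (0.528%) without it. Without the block and with it, more genes were thus called between lines of 1 genotype than between the edits. A fit of the 9 edited libraries alone, without WT in the estimate of the spread, called 2 genes, both among the 25. The count of 25 rested on few libraries: it was 1 without pInv replicate 3, with only Acp6 left, 3 without pInv replicate 1 (Aire, Epas1 and Nxf3), 12 without pInv replicate 2, 11 without pKO1 replicate 1, 12 without pKO1 replicate 2, 16 without WT1 replicate 1 and 13 without WT1 replicate 2. Set against pInv singly, pKO1 gave 0 calls (961 genes at an unadjusted p under 0.05) and pKO2 gave 86, while all 25 genes kept their direction in both lines.

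The 25 genes were also compared between the unedited lines. All 25 had the same sign for WT1 minus WT2 as for deletion minus inversion, against 70.3% of all genes tested, and 13 of the 25 (52%) were called between WT1 and WT2, which is 17.3% of the 75 genes called there. With the block 21 of the 25 were called between the WT lines. The 2 comparisons share no library, although they share the estimate of the spread. Tbx3, for example, was at 43.1, 41.0 and 36.2 CPM in WT1 but at 10.3, 9.05 and 10.1 CPM in WT2, and the inversion line lay between them. The labels do not say from which culture each edited line was made, and the part of line history in the difference between the edits was not tested.

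**Figure D2:**
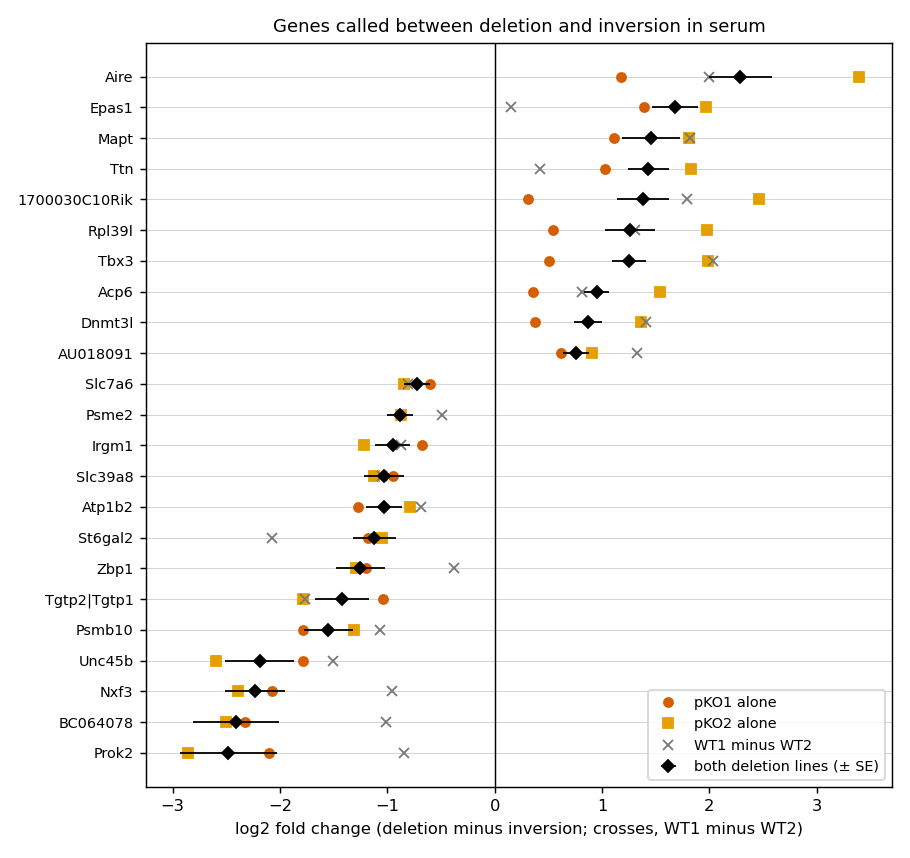
Log2 fold change of 23 of the 25 called genes in serum: diamonds give deletion minus inversion over both deletion lines with SE, circles and squares give pKO1 and pKO2 alone, and crosses give WT1 minus WT2. Every cross lies on the same side of 0 as its diamond, and the genes higher in the deletion were all further from 0 in pKO2 than in pKO1.

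Psmb10 and Psme2, genes of peptide processing by the proteasome, were lower in the deletion lines. Psmb10, a catalytic subunit of the immunoproteasome, was at 14.4, 12.6 and 10.8 CPM in pKO1, at 23.0, 13.2 and 16.6 CPM in pKO2, and at 40.5, 28.7 and 61.6 CPM in pInv. All 6 deletion libraries lay below all 3 inversion libraries, and the log2 fold change was -1.55 ± 0.23 (adjusted p = 0.0141). Groups that did not overlap, in either direction, were seen for 21 of the 25 called genes and for 3.13% of all genes tested (445). The rule that named 18 of the called genes required this. Psme2, a subunit of the proteasome activator PA28, was at 49.0, 44.4 and 43.0 CPM in pKO1, at 47.7, 39.7 and 49.9 CPM in pKO2, and at 77.5, 78.8 and 95.01 CPM in pInv. The deletion lines overlapped each other and were again wholly below the inversion line (log2 fold change -0.88 ± 0.12, adjusted p = 0.00582). Psmb8, another immunoproteasome subunit, was at 4.37 to 10.1 CPM in the deletion lines and at 10.1 to 26.8 CPM in pInv, and Erap1, which trims peptides in the endoplasmic reticulum, at 12.4 to 29.4 and 39.2 to 52.5 CPM. Erap1 was picked after its values were seen. Neither was called without the block (adjusted p = 0.195 and 0.0569), and both fell with it, by 1.29 ± 0.24 for Psmb8 (adjusted p = 0.0209) and by 1.12 ± 0.13 for Erap1 (adjusted p = 0.000591) on the log2 scale. Against WT, the deletion lines gave -1.75 ± 0.20 for Psmb10 (adjusted p = 0.000328) and -1.17 ± 0.10 for Psme2 (adjusted p = 3.24e-05), and pInv gave -0.21 ± 0.24 (adjusted p = 0.999) and -0.29 ± 0.12 (adjusted p = 0.933).

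Interferon-inducible GTPases and a nucleic acid sensor were lower as well. Irgm1, an immunity-related GTPase that acts on membranes of vesicles with microbes, was at 48.0, 65.8 and 55.2 CPM in pKO1, at 33.8, 48.8 and 33.6 CPM in pKO2, and at 78.0, 93.2 and 99.4 CPM in pInv. The 2 groups did not overlap (log2 fold change -0.95 ± 0.16, adjusted p = 0.0272). The row that merges Tgtp2 and Tgtp1, a pair of near-identical GTPases whose reads cannot be assigned to one copy, fell from 4.75 ± 0.294 CPM in pInv (SD, n = 3) to 1.84 ± 0.750 CPM in the deletion lines (SD, n = 6, adjusted p = 0.0323). Zbp1, a sensor of nucleic acids in the Z form, fell from 7.80 ± 2.57 to 3.27 ± 0.464 CPM (adjusted p = 0.0421).

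Guanylate-binding proteins, GTPases that interferon induces strongly, were singled out after their values were seen. All 7 that were tested had a negative fold change, as had 6403 of all 14197 genes tested. None of the 7 was called without the block, and Gbp2, Gbp2b, Gbp3, Gbp4 and Gbp9 were called lower with it. Gbp2 was at 10.7, 9.14 and 17.9 CPM in pKO1, at 12.1, 8.50 and 16.1 CPM in pKO2, and at 25.8, 27.6 and 70.7 CPM in pInv. In each line replicate 3 was the highest, and the groups did not overlap (with the block, log2 fold change -1.64 ± 0.15, adjusted p = 0.00012). Without the block the adjusted p of Gbp2 was 0.0912 and that of Gbp3 0.0619.

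The wider interferon list gave no call. Of the 15 listed genes of interferon response and antigen presentation, none was called in either direction, 6 had a negative fold change and the median was 0.11, against 0.03 for all genes tested. With the block 2 were called lower, Psmb8 and the helicase Ddx60. Ifit1, a classical interferon-induced gene, differed by 0.11 ± 0.29 (adjusted p = 0.974) and B2m, the light chain of class I molecules, by 0.15 ± 0.36 (adjusted p = 0.972). Neither of these differences passed the test. The 11 macrophage markers had 0 calls and a median of 0.29, or 0.04 with a feeder score, the mean log2 CPM of feeder fibroblast genes, as covariate. Their sum was 233.3 to 613.1 CPM in the deletion lines and 161.8 to 500.7 CPM in pInv, no member was at 0 counts, and their part in the differences was not tested.

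**Figure D3:**
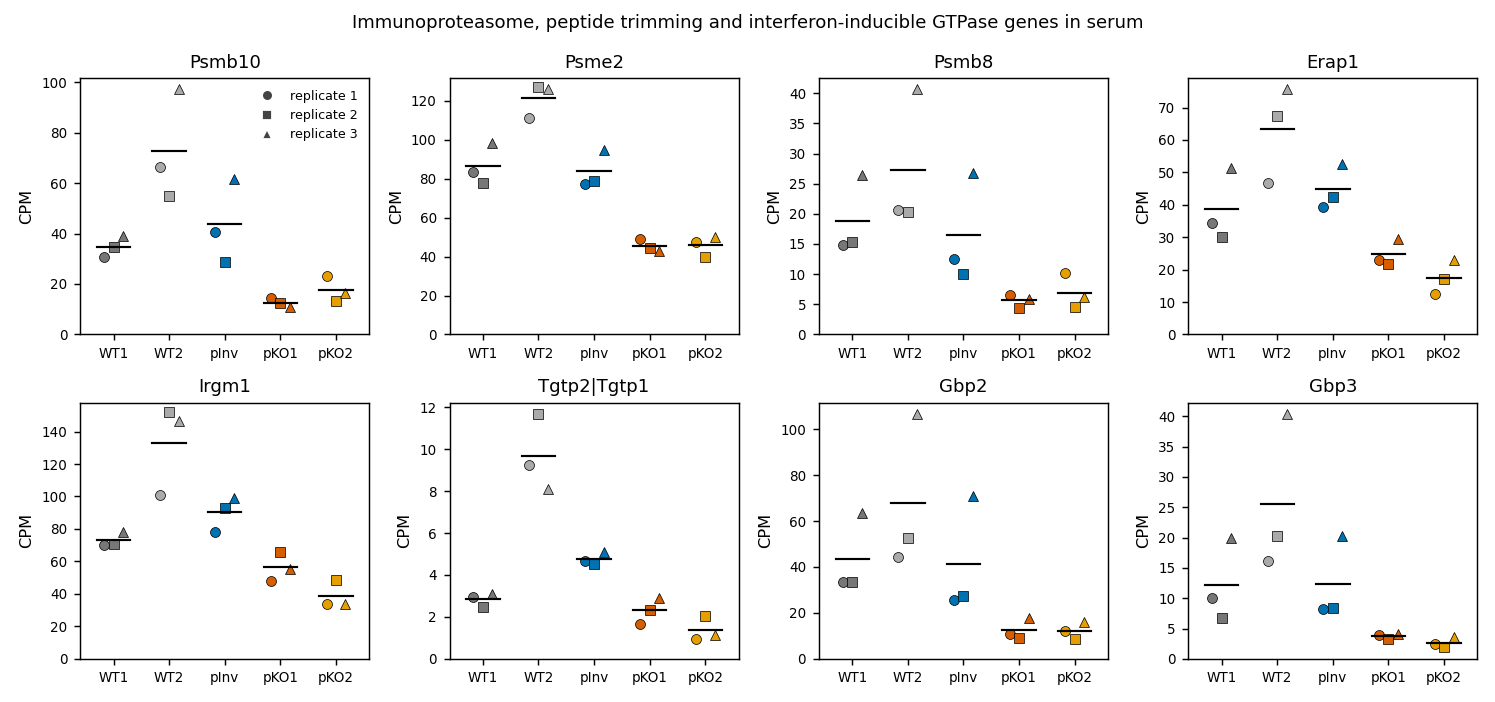
CPM of 8 genes of the immunoproteasome, peptide trimming and interferon-inducible GTPases in the 15 serum libraries, by line; symbols mark the replicate number, bars the mean of a line, and each axis starts at 0. For Psmb10, Psme2, Erap1, Irgm1, the Tgtp row, Gbp2 and Gbp3 all deletion libraries lie below all inversion libraries; for Psmb8 the groups overlap slightly near 10.1 CPM.

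Further genes that were lower in the deletion lines belonged to no common list. Nxf3, an X-linked member of a family of RNA export factors, was at 0.651, 0.809 and 0.897 CPM in pKO1, at 0.362, 0.787 and 0.744 CPM in pKO2, and at 2.76, 3.77 and 3.42 CPM in pInv. This was a 4.69-fold difference (log2 fold change -2.23 ± 0.28, adjusted p = 0.00517), and it was the only one of 11 tested members of the X-linked Xlr, Rhox and cancer-testis list to be called. Unc45b, a chaperone of muscle myosin, fell 4.58-fold (adjusted p = 0.0103) and BC064078 5.33-fold (adjusted p = 0.0251). Atp1b2, a subunit of the sodium pump, was 2.04-fold lower than in pInv (adjusted p = 0.0217). The zinc importer Slc39a8 was 2.05-fold lower (adjusted p = 0.0441) and the sialyltransferase St6gal2 2.17-fold lower (adjusted p = 0.0372). All of these had non-overlapping groups, as the rule that named them required. Prok2, a secreted signalling peptide at 0.0787 to 0.279 CPM in the deletion lines and 0.832 to 0.861 CPM in pInv, and the amino acid transporter Slc7a6, which fell 1.64-fold (adjusted p = 0.0217), complete the 13. For St6gal2 WT1 was at 1.34 to 1.86 CPM and WT2 at 5.55 to 7.88 CPM, so the WT lines enclosed both edits. The WT lines were also called apart for 2 other lower genes. WT1 and WT2 averaged 2.83 and 9.67 CPM for the Tgtp row (adjusted p = 0.0104). They averaged 72.1 and 126.5 CPM for Slc7a6 (adjusted p = 0.0156), beside 71.4 CPM in the deletion lines and 117.1 CPM in pInv.

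Against WT the 13 lower genes were mostly called in the deletion lines and not in the inversion line. Deletion minus WT was called in the same direction for 12 of the 13, St6gal2 being the exception, where 5.95% of all genes were called. Inversion minus WT was called for none of the 13, where 0.0563% of all genes were called, and with the block for 2. For the 12 higher genes deletion minus WT was called in the same direction for 8, and inversion minus WT for 2, Aire and Epas1, or 4 with the block. The corresponding shares of all genes with the block were 20.3% and 0.19%. Both sets of genes were picked on these same deletion and inversion libraries, so the counts are not independent of the calls between the edits. Inversion minus WT also rests on 3 edited libraries and deletion minus WT on 6.

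The genes higher in the deletion lines included regulators of transcription and methylation, and all 12 had a larger fold change in pKO2 than in pKO1. Tbx3, a T-box factor of the naive pluripotency network, was at 29.7, 33.2 and 19.3 CPM in pKO1, at 67.8, 82.1 and 79.5 CPM in pKO2, and at 18.0, 21.3 and 18.3 CPM in pInv. pKO1 overlapped the inversion line while pKO2 was above it in every library, and the mean difference of 1.25 ± 0.16 (adjusted p = 0.00517) stands beside a difference of -1.48 between pKO1 and pKO2 (adjusted p = 0.00377). Aire, the transcriptional regulator known from thymic tolerance and also expressed in stem cells, was at 4.09, 2.99 and 3.03 CPM in pKO1, at 20.8, 13.4 and 12.6 CPM in pKO2, and at 1.90, 1.34 and 1.202 CPM in pInv. Aire in pInv was also below WT (-1.88 ± 0.29, adjusted p = 0.0323), while deletion minus WT was 0.41 ± 0.21 (adjusted p = 0.245). Both deletion lines exceeded the inversion line, by 1.18 in pKO1 (adjusted p = 0.396) and 3.39 in pKO2 (adjusted p = 0.000139) on the log2 scale. Dnmt3l, a cofactor of the de novo DNA methyltransferases, averaged 195 ± 6.12 CPM in pKO1, 383 ± 63.6 CPM in pKO2 and 150 ± 7.67 CPM in pInv. WT1 averaged 323 CPM and WT2 121 CPM. Over both deletion lines the log2 fold change was 0.87 ± 0.13 (adjusted p = 0.0129), and for pKO1 alone 0.38 (adjusted p = 0.628). Dnmt3l and Aire overlap on opposite strands in the RefSeq annotation, and whether the counting used strand is not given in the sources used here, so their reads may not be separate.

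Of the 12 higher genes, 7 also differed between pKO1 and pKO2. They included Tbx3, Aire, Dnmt3l, the lysophosphatidic acid phosphatase Acp6, the ribosomal protein paralogue Rpl39l and 1700030C10Rik, all higher in pKO2. With the block 9 of the 12 differed. Acp6 averaged 43.0 ± 2.59 CPM in pKO1, 96.9 ± 10.5 CPM in pKO2 and 33.4 ± 3.96 CPM in pInv (adjusted p = 0.00517 over both deletion lines). The value of Rpl39l is uncertain because it resembles Rpl39 and reads may be split between the copies.

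For the other 5 higher genes the difference between pKO1 and pKO2 did not pass the test without the block, and with it pKO1 was below pKO2 for Epas1 (-0.56 ± 0.13, adjusted p = 0.0376) and Ttn (-0.81 ± 0.18, adjusted p = 0.0361). Epas1, the oxygen-regulated transcription factor HIF-2α, was at 103, 98.0 and 93.5 CPM in pKO1, at 172, 135 and 133 CPM in pKO2, and at 44.6, 38.2 and 29.5 CPM in pInv. All deletion libraries were above all inversion libraries (log2 fold change 1.68 ± 0.21, adjusted p = 0.00517), and it was pInv that stood away from the unedited cells, at -1.52 ± 0.21 against WT (adjusted p = 0.0172), while deletion minus WT was 0.16 ± 0.16 (adjusted p = 0.578). The 18 genes of hypoxia and glycolysis had 0 calls and a median of 0.22. Ttn, the giant protein of muscle sarcomeres, rose from 17.4 ± 3.56 to 48.6 ± 17.1 CPM (adjusted p = 0.00609). Its level in the deletion lines also differed from WT, by 1.76 ± 0.15 on the log2 scale (adjusted p = 3.24e-05). Mapt, which encodes the microtubule protein tau, was at 1.34 ± 0.278 CPM in pInv and 3.81 ± 1.07 CPM in the deletion lines (adjusted p = 0.0441). WT was at 4.08 CPM, with WT1 at 6.37 and WT2 at 1.79 CPM (adjusted p = 0.00886 between them). On the log2 scale deletion minus WT was 0.13 ± 0.20 (adjusted p = 0.734) and inversion minus WT -1.33 ± 0.27 (adjusted p = 0.142). AU018091 was 1.70-fold higher in the deletion lines than in pInv (adjusted p = 0.0217), with WT1 at 185 and WT2 at 73.4 CPM. Of the 15 fits that each left out 1 library, Mapt was called in 2, as was St6gal2, while Prok2 was called in 1 and Zbp1, Slc39a8 and Rpl39l in 3 each.

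Primitive streak genes were lower in the deletion lines by count, without a call. Of 19 tested members of the primitive streak and mesendoderm list, 17 had a negative fold change, against 6403 of all 14197 genes tested. The median was -0.86 against 0.03 for all genes, and none was called in either direction. T (Brachyury), the T-box gene of the streak, was at 55.5, 25.2 and 42.6 CPM in pKO1, at 150, 34.1 and 78.3 CPM in pKO2, and at 93.9, 73.2 and 208 CPM in pInv. The groups overlapped and the spread between replicates was wide (log2 difference -1.06 ± 0.49, adjusted p = 0.638). With the block 3 members were called lower. Lhx1, a homeobox gene of the node and a target of Eomes in the embryo, gave -1.41 ± 0.27 (adjusted p = 0.0233), Cyp26a1, which degrades retinoic acid, gave -1.23 ± 0.24 (adjusted p = 0.0233), and Hoxb1 gave -1.89 ± 0.41 (adjusted p = 0.0384). The median was -1.40 for pKO1 alone and -0.52 for pKO2 alone, and it was -0.28 without all libraries numbered 3, in which Eomes and T were highest in pInv and in both WT lines.

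Lists of neighbouring fates gave few calls. The Nodal pathway, which induces Eomes in the embryo, had 0 of 14 called and a median of 0.01. Early mesoderm and vascular precursor genes had 0 of 14 called and a median of -0.15, and with the block the receptor gene Aplnr (-2.39 ± 0.32, adjusted p = 0.00213) and the gene of its ligand, Apln (-1.64 ± 0.27, adjusted p = 0.0103), were lower. Definitive endoderm had 0 of 10 called and a median of -0.10, and with the block the keratin gene Krt19 was lower. The 2-cell-like list holds genes of a rare state of stem cells that resembles the early embryo. Its 9 tested members all had a positive fold change, as had 7794 of all 14197 genes tested. Their median was 0.99 with 0 calls, and with the block Zscan4b (1.02 ± 0.22, adjusted p = 0.0384) and Zscan4c (1.37 ± 0.27, adjusted p = 0.0233) were higher. Zscan4 genes are near-identical copies, so their separate values are uncertain. Zscan4c was highest in pKO1 replicate 3, at 36.7 CPM, against 3.96 to 7.49 CPM in pInv.

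Pluripotency lists gave few calls. Of 15 naive pluripotency genes 1 was called, Tbx3, and the median was 0.16. Nanog differed by 0.04 ± 0.17 (adjusted p = 0.98), and the 12 core pluripotency genes had 0 calls and a median of 0.10. The 14 formative and primed epiblast genes had 1 call, Dnmt3l, and a median of -0.04. Pou5f1, the defining gene of pluripotent cells, was at 430.8 to 865.6 CPM over the 9 libraries. Of the neural progenitor list, Sox1 was at 0 to 2.09 CPM and Pax6 at 7.12 to 16.5 CPM. The 14 tested members of that list summed to 1412 to 3841 CPM in the deletion lines and 1441 to 2806 CPM in pInv. Which cells of the culture made these transcripts was not tested. Feeder fibroblast genes were present in all libraries, with no member at 0 counts, a median of 0.41 over 20 members and 0 calls. Their sum was 10882 to 24677 CPM in pKO1, 5612 to 17049 CPM in pKO2, 6003 to 17236 CPM in pInv and 6833 to 11802 CPM in WT, and replicate 3 was lowest in every line, while Gbp2 and Psmb8 in pInv were highest in replicate 3. The part of feeder content in the differences was not tested beyond the following fits. With the feeder score as a covariate all 25 genes were called, among 54 in all. With the score and the block 13 of the 25 were called, and the streak median was -0.48 with the score alone.

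**Figure D4:**
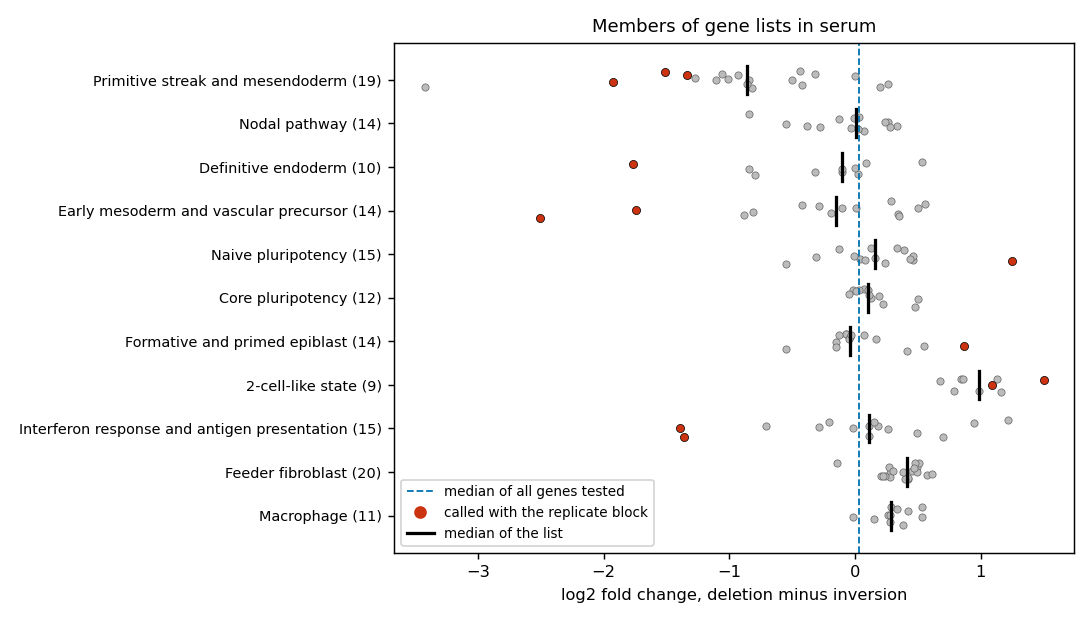
Log2 fold change, deletion minus inversion, of each tested member of 11 gene lists in serum, with the number tested in brackets; black bars give the list's median, the dashed line the median of all genes (0.03), and red points the members called in the fit with the replicate block. The primitive streak list lies mostly left of the dashed line (median -0.86) and the 2-cell-like list wholly right of it (median 0.99).

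Genes of 2 chromosomes were shifted as a whole. The median log2 fold change of deletion minus inversion was -0.22 over 745 genes of chromosome 8 and -0.15 over 1168 genes of chromosome 11, and 0.01 to 0.09 on the other autosomes. The same chromosomes set the WT lines apart, with a median for WT1 minus WT2 of -0.38 on chromosome 8 and -0.20 on chromosome 11. On chromosome 8 the line medians against WT were 0.04 in pKO1, -0.12 in pKO2 and 0.17 in pInv, and on chromosome 11 they were -0.37, -0.29 and -0.15. Of the 13 lower genes, 6 lie on these chromosomes, namely Psmb10 and Slc7a6 on chromosome 8 and Irgm1, the Tgtp row, Unc45b and Atp1b2 on chromosome 11, while Mapt on chromosome 11 was higher. With the block, genes called lower made up 4.03% of chromosome 8 (30 genes), 2.57% of chromosome 11 (30 genes) and 0.415% of the other genes (51 of 12284). The part of the chromosome shifts in the calls was not tested.

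**Figure D5:**
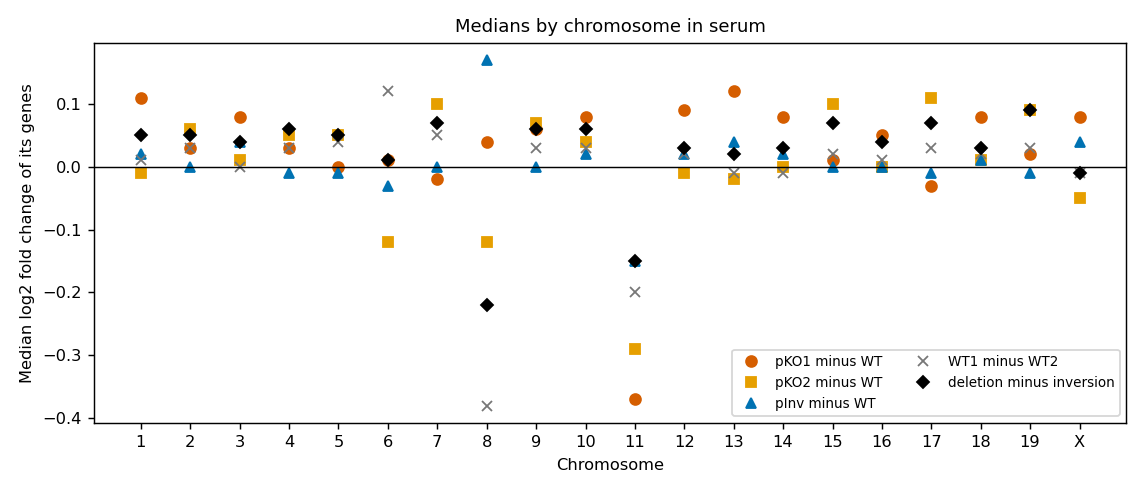
Median log2 fold change of the genes of each chromosome in serum for pKO1, pKO2 and pInv against WT, for WT1 minus WT2 and for deletion minus inversion. For chromosomes 8 and 11 the black diamond (-0.22 and -0.15) and the grey cross (-0.38 and -0.20) lie below those of the other autosomes, while pKO1 on chromosome 8 (0.04) lies among them.

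Few of the serum calls were also calls in the other states. In 2i medium, which holds cells in the naive state, 468 of 13938 genes were called between deletion and inversion (3.36%), and in neural progenitors (NPCs), collected after 4 days of neuronal differentiation, 127 of 14511 (0.875%). Of the 25 serum genes 21 were tested in 2i, 9 of them with the same direction, and 2 were called in the same direction there (Epas1 and Slc7a6), which is 9.52% of the 21 and 0.427% of the 468. In NPCs all 25 were tested, 20 with the same direction, and 2 were called in it (BC064078 and Nxf3), which is 8% of the 25 and 1.57% of the 127. A direct test of the difference between serum and another state called 13 of 15679 genes for 2i (0.0829%) and 60 for NPCs (0.383%). Psme2 differed between serum and 2i by -1.43 ± 0.19 (adjusted p = 6.57e-05), since it was higher in the deletion lines in 2i, at 41.4 ± 3.18 against 28.4 ± 4.07 CPM. Irgm1 in NPCs was at 10.5 ± 5.31 CPM in the deletion lines and at 3.41 ± 0.765 CPM in pInv, the reverse of serum (difference between states -2.53 ± 0.58, adjusted p = 0.0349). Eomes in NPCs was at 17.8 ± 8.16 CPM in the deletion lines and at 2.36 ± 0.686 CPM in pInv, and serum and NPCs differed by -3.42 ± 0.43 on the log2 scale (adjusted p = 6.22e-06), while serum and 2i differed by -0.16 ± 0.40 (adjusted p = 1).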

How the data were processed

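Libraries of poly(A) RNA came from a Lexogen SENSE kit, per the labels' protocols. The deposited values are expected counts per gene that the authors estimated with RSEM on mm9, per the submitters' processing notes. The aligner, read filters and strand setting are not given in the sources used here. Expected counts were rounded, since 5.53% to 7.86% of values per serum library were not whole. Of 24990 rows, 23822 were named by gene id and 1139 by transcript. No 2 libraries were copies, with a chi-square per gene of at least 7.05. Nothing states whether replicates are separate cultures, so p-values measure the spread between these libraries, which may be technical.

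Tests were edgeR 4.0.16 quasi-likelihood F tests in R 4.3.3 with TMM scaling, filterByExpr and Benjamini-Hochberg adjustment at 0.05, 1 mean per line, and all 15 serum libraries. The contrast was the mean of pKO1 and pKO2 minus pInv. Each SE was derived from the F statistic as |log2 fold change|/√F. The fit and its recovery of changed genes were tested on simulated counts with planted changes. These counts had no other line differences and no deviation shared by replicate number, so the run does not cover those features of the data. Replicate numbers come from the titles, which do not say what they mark. They were taken to pair libraries because the correlation of deviations was over 0.1 in all 9 pairs of same-numbered libraries (0.114 to 0.686) from pKO1, pKO2 and pInv, and the number then entered as a block. Over all 5 lines it was over 0.1 in 29 of 30 pairs, the lowest being 0.0970. DESeq2 1.42.0, RLE scaling, other filters, left-out libraries, a feeder score and left-out chromosomes were alternatives. The 31 gene lists (455 of 458 members matched) and the genes named were chosen with earlier results of these data known. The rule named Eomes, Platr11 and the nearby genes Cmc1 and Golga4. It also named up to 10 called genes per direction whose groups do not overlap and whose mean reaches 1 CPM. Up to 3 called genes per list were named too, and list members needed to show that a list did not move. Prok2, Slc7a6, Psme2, Rpl39l, 1700030C10Rik, the Gbp genes, Erap1 and the genes called only with the block were chosen after their values were seen. A few genes that the counts include are not reported here by name. Summaries and figures used Python 3.11.15, pandas 2.3.3 and matplotlib 3.10.9.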

Additional observations from a re-analysis of the deposited data

Results flagged for a closer look

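Among 110 groups of 6 libraries examined, 6 held 1 library far from the others. Chance flags about 1 group in 20 where groups are independent, but these groups share libraries. In the deletion lines these were Unc45b in pKO1 replicate 3 (2.02 CPM), Krt19 in pKO2 replicate 1 (39.4 CPM) and Zscan4b in pKO1 replicate 3 (28.1 CPM), each the highest. In the WT lines they were Krt19 (204 CPM), Apln (93.5 CPM) and Cd274 (15.9 CPM), all highest in WT2 replicate 3. Cd274, the gene of the ligand PD-L1, was lower in the deletion lines in the fit with the replicate block (log2 fold change -0.93, adjusted p = 0.0421) and not called without it (adjusted p = 0.23).

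The deletion lines differed from each other beyond the test's threshold for these called genes. On the log2 scale pKO1 minus pKO2 was -2.21 for Aire, -1.48 for Tbx3, -0.98 for Dnmt3l, -1.17 for Acp6, -1.45 for Rpl39l and -2.15 for 1700030C10Rik.

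The difference between deletion and inversion itself differed between states for several named genes, all more negative in serum. Serum minus NPCs was -3.42 for Eomes, -2.53 for Irgm1, -1.61 for Psmb10 and -1.19 for Psme2. It was -6.26 for T, -5.22 for Aplnr, -4.73 for Hoxb1, -3.63 for Apln, -3.56 for Psmb8, -3.22 for Gbp2, -3.18 for Gbp2b and -2.32 for Erap1. Serum minus 2i was -1.43 for Psme2 and -1.93 for Nxf3.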

How the results depend on the processing

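The count of 25 genes called in serum was 25 with RLE scaling, 26 without the filter on low counts, 18 without the genes of chromosomes 8 and 11, 22 with the feeder score and the replicate block, and 33 with the block in the 9 edited libraries alone. It was 109 with DESeq2, 54 with the feeder score, 86 for pKO2 alone and 166 with the replicate block, but 2 in the 9 edited libraries alone, 0 for pKO1 alone, where 961 genes had an unadjusted p under 0.05, and 0 with lines as replicates, where 409 had. Leaving out 1 edited library gave 1 to 36 calls and leaving out 1 WT library 13 to 26 calls (16 without WT1 replicate 1, 13 without WT1 replicate 2). Without all libraries numbered 1, 2 or 3 it was 0 (798 genes at an unadjusted p under 0.05), 0 (554 genes) and 6. By edgeR with the replicate block, leaving out 1 library gave 26 to 340 calls: 103, 88 and 76 without pKO1 replicates 1, 2 and 3, 340, 86 and 162 without those of pKO2, and 34, 56 and 26 without those of pInv. The block also gave 120 calls for pKO1 alone, 387 for pKO2 alone, 691 between the deletion lines, 351 between the WT lines, 2887 for deletion against WT, 27 for inversion against WT, 1292 in 2i and 256 in NPCs, and between deletion and inversion in serum it changed no call of a named gene other than those given with it. The cause of these changes was not tested.

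Eomes kept its negative sign and was not called in any of 41 settings (-0.84 to -0.25, adjusted p 0.0965 to 1). The log2 fold change of Cmc1 turned to -0.02 with the feeder score and the replicate block, -0.04 with the block without pInv replicate 3 and -0.07 without all libraries numbered 3, and that of Golga4 to -0.01 for pKO2 alone with the block. Over the 23 called genes reported by name and the alternatives, 609 values kept the call, 325 lost it and none changed sign. The alternatives that leave out WT libraries or a replicate number, or that combine the block with left-out libraries or single lines, were added after the data were seen. At 8910017 to 14947003 counts per library, rows near the floor of 3 counts, such as Platr11 in edited cells, could not show a difference between the edits.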
